A study of Drosophila melanogaster with 24 samples.

Results

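The antenna of Drosophila melanogaster was compared between 40 hours after pupation and the adult fly, in all 3 genotypes of a time course on the transcription factor gene rotund (rn). The 12 libraries used here, of 24 in the series, are the 6 whose labels give the adult antenna and the 6 whose labels give 40 hours after pupation. At each stage, 2 libraries each came from w[1118];;+/+ flies (wild type), from w[1118];;rn[tot]/TM6 flies (heterozygote) and from w[1118];;rn[tot]/rn[tot] flies (mutant). All groups share the w[1118] allele and only the heterozygote carries the TM6 balancer chromosome. Polyadenylated RNA of antennae was sequenced. The labels give the rn[tot] allele by its symbol, and they give neither the age and sex of the adults, the time of day of collection, nor the number of animals in a library. They also do not say whether the 2 libraries of a group came from separate animals, so the p-values may measure only technical spread.

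The antenna carries the olfactory organ of the fly. Its sensilla are hollow cuticular hairs that house the dendrites of receptor neurons, wrapped by support cells that secrete the cuticle, the pores and the lymph of the hair. In the pupa the support cells lay down this cuticle while the neurons send out axons, and each neuron then turns on 1 or a few odorant receptors, which work with a shared coreceptor such as Orco or Ir25a.

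Stage set most of the spread between the libraries. The first principal component of log2 levels held 88.9% of the variance and separated the stages, and the second held 3.4% and placed wild type apart from both rn stocks. For each gene 1 transcript was kept. Counts in the kept transcripts ran from 10485953 to 12109433 per library at 40 h and from 11806183 to 15123603 in the adult. Between 9224 and 9378 genes had 10 counts or more at 40 h, against 9801 to 10109 in the adult. The mitochondrial genome held 1.28% to 1.88% of the counts in kept transcripts at 40 h and 4.55% to 7.43% in the adult. Levels below are in CPM, counts scaled to library totals with trimmed-mean factors (TMM), for 1 transcript of each gene. They compare a gene between stages and not 1 gene with another. The 6 libraries of each stage are given by their lowest, median and highest value. Log2 changes are adult minus 40 h from edgeR with genotype as a covariate. The value after ± is an approximate SE, which edgeR does not report. It is the size of the log2 change divided by the square root of its F statistic. It cannot be relied on where a group has no count. In the genes given in this way, the libraries of the 2 stages did not overlap unless it is said that they did.

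The targeted gene, rn, was low at both stages. At 40 h it stood at 2.13 and 2.98 CPM in wild type, at 4.92 and 2.11 CPM in the heterozygote and at 1.91 and 1.804 CPM in the mutant. Adult libraries had it at 2.51 and 2.905 CPM in wild type, at 2.25 and 1.74 CPM in the heterozygote and at 1.21 and 1.704 CPM in the mutant. The stages overlapped and no change passed the test (log2 change -0.36 ± 0.26, adjusted p = 0.22), and at each stage the 2 mutant libraries were the lowest. Its counts were few, 164 over all libraries of 40 h and 172 over those of the adult. Which part of the transcript the rn[tot] allele affects is not given in the sources used here, so that these levels are a weak check of the genotype labels.

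Of 10512 genes tested, 4416 (42.0%) were higher in the adult and 4134 (39.3%) were lower at an adjusted p under 0.05, and 1962 did not pass. A change of at least 1 on the log2 scale was found for 2909 genes that were higher (27.7%) and for 2084 that were lower (19.8%). Changes of at least 5 on the log2 scale were found for 536 higher and 347 lower genes, and of at least 8 for 147 and 106. In 3464 genes all 6 adult libraries lay above all 6 libraries of 40 h, and in 3298 all 6 lay below. With so many genes past the test, the counts of each gene group below are to be read against the shares of 42.0% and 39.3%, and the median log2 change of a group against the median of all genes tested, 0.04. Genes also had to pass a filter on low counts. A gene near 0 at 1 stage could pass it only through the other stage, which then fixed its direction. Where the filter dropped members of a list, the counts of its rising and falling genes carry that limit. The RNA is from bulk tissue, so fewer cells of a type and less RNA per cell cannot be told apart.

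**Figure D1:**
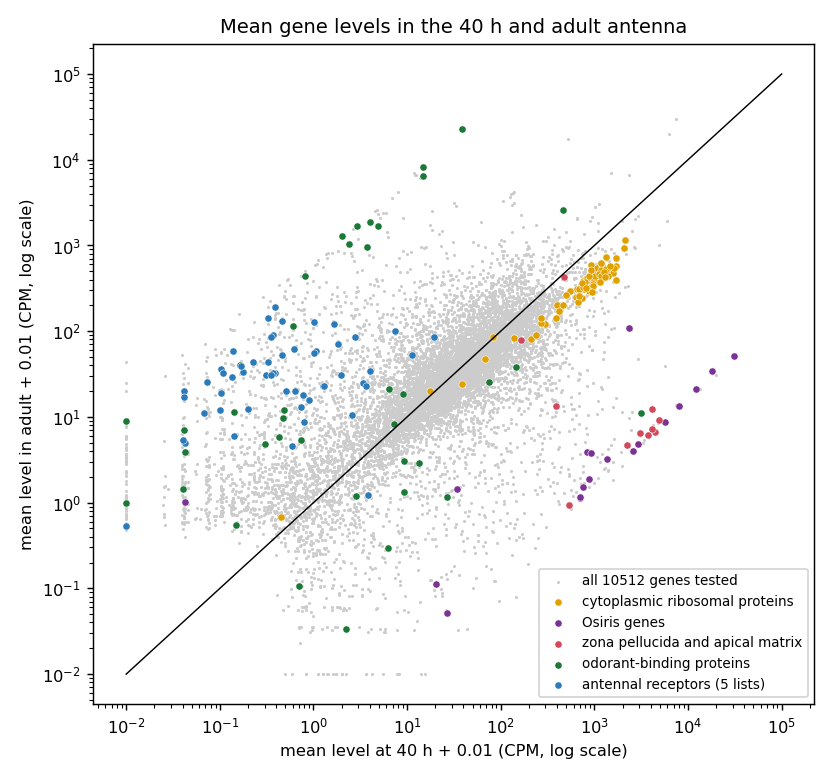
Mean level of each of the 10512 genes tested at 40 h (x axis) and in the adult (y axis), in CPM plus 0.01 on log scales, over 6 libraries a stage, with 5 gene groups coloured. Osiris and zona pellucida genes lie far below the line of equal levels, most antennal receptors and many odorant-binding proteins far above it, and ribosomal proteins in a band just below it.

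CPM values are not corrected for transcript length, and they leave out the counts of a gene's other transcripts. An order of genes by CPM is therefore not a ranking of what the antenna made most. The 10 genes with the highest CPM were listed for each stage. At 40 h they included 4 Osiris genes (Osi3, Osi7, Osi9 and Osi22), from a family of secreted or membrane proteins of cuticle-forming cells, as well as CG13023, CG4702, CG42331, 2 mitochondrial transcripts and the translation elongation factor eEF1alpha1. In the adult they included 3 mitochondrial transcripts, the odorant-binding proteins Obp19d and Obp83a, the soluble antennal proteins a10 and Os-C, the esterase Jhedup, CG6409 and Msr-110. Osi3 stood at 26078 to 41397 CPM at 40 h (median 29538) and 35.02 to 65.6 CPM in the adult (median 55.2). Obp19d stood at 25.4 to 61.6 CPM at 40 h (median 32.3) and 19476 to 26034 CPM in the adult (median 22335). The libraries of the stages did not overlap in either gene (log2 change -9.26 ± 0.23 for Osi3 and 9.28 ± 0.21 for Obp19d).

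The largest increases among genes of at least 50 CPM, with no overlap of the stages, were those of Dso2, CG3301, Cln3, CG9519, CG18302, CG9447, CG9452, CG32444, CG10553, CG31207, Miox and Cyp4ac2, with log2 changes of 9.34 to 10.29. Dso2 encodes a peptide of the immune response, Miox a myo-inositol oxygenase and Cyp4ac2 a cytochrome P450. Cln3, the fly counterpart of a human lysosomal disease gene, stood at 0 to 0.367 CPM at 40 h (median 0.09496) and 125 to 214 CPM in the adult (median 158), with a log2 change of 9.88 ± 0.26, adjusted p = 4.56e-12. For Dso2 only 2 counts were seen over all 6 libraries at 40 h against 4379 in the adult. The ratio of levels was 1644 (exact 95% interval of the counts 455 to 13582). The interval covers counting error only, and it is too narrow if both mates of a pair were counted. The largest decreases were those of CG9294, CG14395, CG14960, tpr, CG14107, CG13272, CG18735, CG12017, Cpr66Cb, dyl, Osi12 and Osi23, with log2 changes of -10.80 to -9.33. Among these, Cpr66Cb encodes a chitin-binding cuticle protein, dyl a zona pellucida domain protein of bristles, and Osi23 a protein needed for the pores of olfactory hairs. Osi23 stood at 2319 to 3198 CPM at 40 h (median 2413) and 2.63 to 6.31 CPM in the adult (median 3.53) (log2 change -9.33 ± 0.27, adjusted p = 7.37e-12).

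Folds of this size rest on very low levels at the other stage. Taking the 29 genes with at least 1000 CPM in the adult and an adult level at least 100-fold above 40 h, their level at 40 h was a median 0.205% of the adult level. In the larval libraries of the series the same genes stood at a median 0.131% of the adult level, and at 8 h at 0.151%. The 49 genes of the opposite kind stood in the adult at a median 0.207% of their 40 h level. By library, the median share at 40 h was 0.123% and 0.130% in mutants, 0.169% and 0.155% in wild type libraries and 0.264% and 0.313% in those of the heterozygote. Whether such low levels are expression in the antenna or reads from other libraries was not tested, so log2 changes beyond about 8 in either direction carry that limit.

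The labels were checked against marker genes. All 8 antenna markers listed (Orco, Ir25a, Ir8a, Obp83a, Obp83b, Obp19a, Amt and lush) were higher in the adult, with a summed level of 73.6 to 156 CPM at 40 h (median 137) and 18121 to 24991 CPM in the adult (median 20157). The median at 40 h was 71.4 CPM for Ir25a and at most 12.9 CPM for the other 7, so that these markers are a weak check of the label of the younger stage. The homeobox genes hth and Dll act in antennal identity but are not among the 8 markers. Both were abundant at both stages, which in bulk RNA does not by itself identify the antenna. Levels of hth were 686 to 949.9 CPM at 40 h (median 774) and 432 to 601 CPM in the adult (median 490). Dll, whose stages overlapped, stood at 282 to 382 CPM at 40 h (median 373) and 374 to 476 CPM in the adult (median 405).

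Markers of other tissues were read beside these. Of 6 compound eye markers tested, 4 were higher in the adult, with a summed level of 1.14 to 4.49 CPM at 40 h (median 2.28) and 3.75 to 104 CPM in the adult (median 6.98). Among the 4, Rh4 kept its call in 13 of 22 alternatives. The gene ninaE, of the main rhodopsin, reached 73.1 CPM in 1 heterozygote library and 10.9 CPM in 1 wild type library and lay at 0.620 to 3.77 CPM in the other 4 adult libraries. The maxillary palp receptor Or46a lay at 13.1 to 15.6 CPM in the 4 adult libraries of wild type and heterozygote, at 0.151 and 0.155 CPM in the 2 adult mutant libraries, and at 0.190 CPM or less at 40 h. Yolk protein genes Yp1, Yp2 and Yp3, made by the female fat body, rose, and of all 9 fat body markers 4 were higher and 3 lower. Yp1, highest in the first adult mutant library, stood at 0.1899 to 0.367 CPM at 40 h (median 0.228) and 24.9 to 247 CPM in the adult (median 50.9) (log2 change 8.21 ± 0.64, adjusted p = 9.15e-08). Of 12 muscle markers 2 were lower and none was higher, and their sum was 379.7 to 1549 CPM at 40 h (median 684) and 251 to 1084 CPM in the adult (median 357). The blood cell gene Hml stood at 1.14 to 2.63 CPM at 40 h (median 1.76) and 38.04 to 79.98 CPM in the adult (median 59.2) (log2 change 5.10 ± 0.16, adjusted p = 1.92e-11), while of all 7 hemocyte markers 3 were higher and 2 lower. Of 7 receptors of the maxillary palp 4 were tested and all 4 were higher. They had few or no counts at 40 h and could be tested only through the adult, so their shared direction is no result about the list. Of 2 germ line markers 1 was higher and 1 lower. Of 4 sex markers 3 were higher and 1 lower. Among the 3, Sxl did not pass in edgeR when the transcripts of each gene were summed (log2 change 0, adjusted p = 0.981). The part of these tissues in the results below was not tested.

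**Figure D2:**
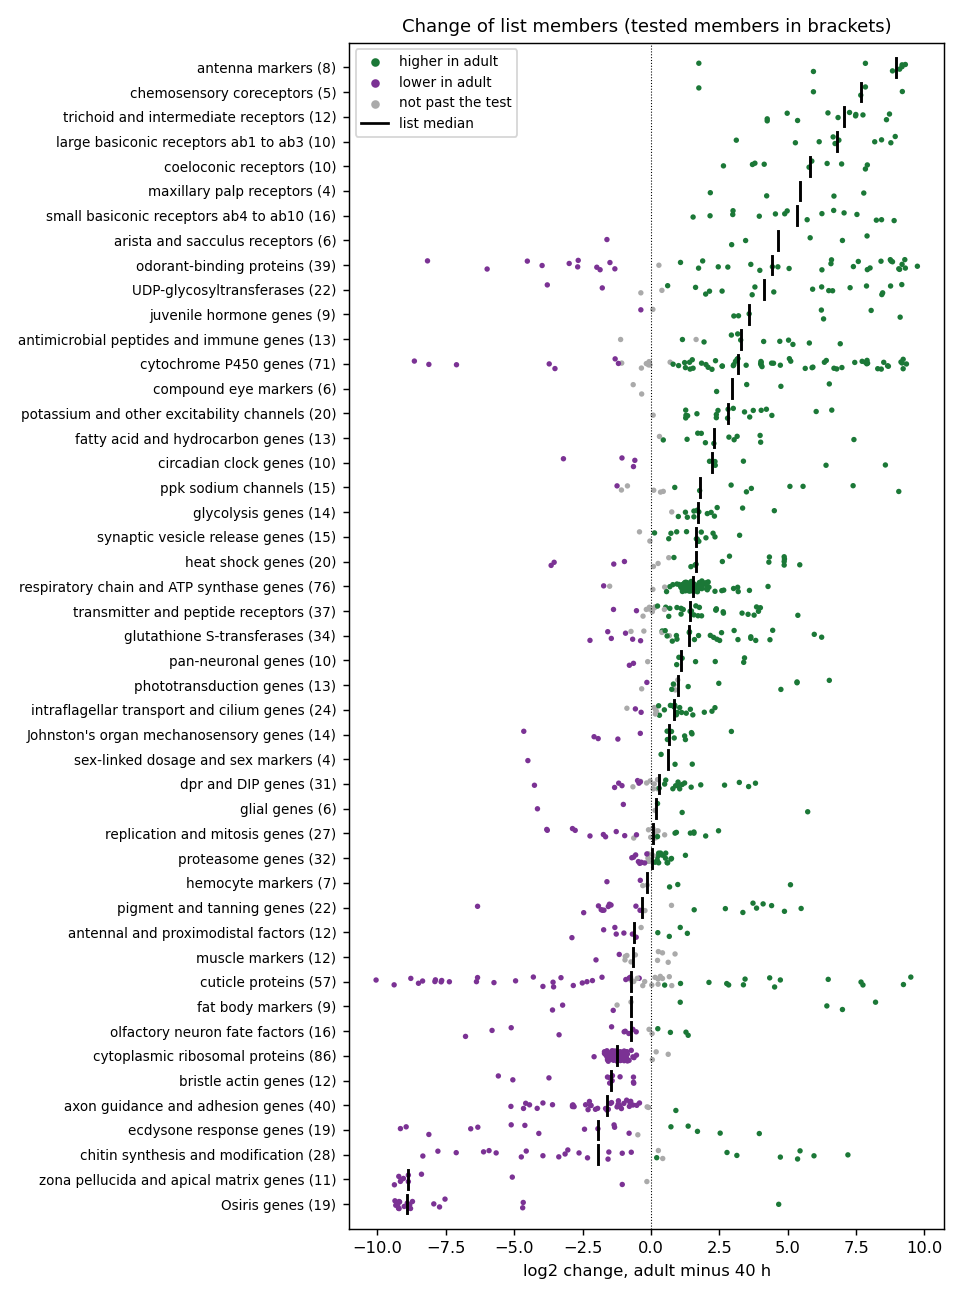
Log2 change from 40 h to the adult (x axis) of the tested members of each gene list (rows), 1 point a gene, with the list median as a bar and the test result as colour. Chemosensory lists sit to the right and the Osiris and zona pellucida lists at the far left, and the ribosomal proteins form a tight cluster near -1.25.

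Receptors of the antenna rose nearly without exception. Of 54 tested receptors of the antenna, which include odorant, ionotropic and a few gustatory receptors, 53 were higher in the adult and 1 was lower. Their summed level was 66.5 to 105.7 CPM at 40 h and 1791 to 2661 CPM in the adult. In 41 of the 54 all adult libraries lay above all libraries of 40 h, against 3464 of all 10512 genes tested. At 40 h 9 of the 54 stood over 2 CPM, 28 over 1% of their adult level and 8 over 10% of it. All 10 tested receptors that belong to large basiconic sensilla (ab1 to ab3) rose, with a median log2 change of 6.80, as did all 16 from small basiconic sensilla, ab4 to ab10 (median 5.34, or 4.94 with Or49a, which had no count at 40 h, at its lower bound). Likewise all 12 of trichoid and intermediate sensilla (median 7.05) and all 10 of coeloconic sensilla (median 5.83) rose. Of the 6 receptors of the arista and sacculus, 5 rose and Ir68a, chosen after its values were seen, fell by 1.61 on the log2 scale.

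Among the receptors of ab1 to ab3, Or92a stood at 0 to 0.572 CPM at 40 h (median 0.407) and 155 to 226 CPM in the adult (median 185), with a log2 change of 8.93 ± 0.24, adjusted p = 4.28e-12. Or59b stood at 0.183 to 0.9496 CPM at 40 h (median 0.384) and 108 to 151 CPM in the adult (median 134). Or42b stood at 0.734 to 2.86 CPM at 40 h (median 1.55) and 87.6 to 167 CPM in the adult (median 114). In each of these genes the 6 adult libraries lay above the 6 of 40 h. Or22b, at 0 to 0.5797 CPM at 40 h (median 0.326) and 125 to 171 CPM in the adult (median 139), has a near-identical neighbour in Or22a, and reads of the pair may have been split between them. Among the small basiconic receptors, Or43b was already well above the floor at 40 h and changed less: its level was 17.6 to 20.5 CPM at 40 h (median 19.3) and 64.99 to 95.8 CPM in the adult (median 88.1) (log2 change 2.16 ± 0.09, adjusted p = 1.70e-10). Or56a, the receptor of geosmin, stood at 0 to 0.382 CPM at 40 h (median 0) and 29.3 to 41.9 CPM in the adult (median 36.1) (log2 change 8.43 ± 0.34, adjusted p = 1.73e-10).

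Several of the trichoid receptors respond to fly odours. Or47b stood at 1.58 to 3.81 CPM at 40 h (median 2.84) and 69.1 to 121 CPM in the adult (median 85.01) (log2 change 4.98 ± 0.13, adjusted p = 4.72e-12). Or65b had the largest change of the list, 0 to 0.367 CPM at 40 h (median 0.0966) and 38.1 to 90.6 CPM in the adult (median 57.5), with a log2 change of 8.72 ± 0.33, adjusted p = 9.18e-11, and like Or65a it belongs to a cluster of close paralogs. Or67d, the receptor of the male pheromone cis-vaccenyl acetate, stood at 43.4 to 52.1 CPM in the 4 adult libraries of wild type and heterozygote but at 0.151 and 0.155 CPM in the 2 of the mutant, so that its stages overlapped.

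Ionotropic receptors detect acids, amines, humidity and temperature. Ir75a stood at 0.428 to 1.35 CPM at 40 h (median 1.12) and 85.3 to 165 CPM in the adult (median 136) (log2 change 6.97 ± 0.14, adjusted p = 7.54e-13). Ir31a changed most among the coeloconic receptors, 0.183 to 0.702 CPM at 40 h (median 0.249) and 41.1 to 140.5 CPM in the adult (median 87.5), with a log2 change of 7.91 ± 0.14, adjusted p = 4.44e-13. Ir64a, the acid sensor of the sacculus, stood at 0 to 0.551 CPM at 40 h (median 0.405) and 77.1 to 100.4 CPM in the adult (median 83.1) (log2 change 7.90 ± 0.23, adjusted p = 8.95e-12). Ir40a, a receptor of dry air, stood at 0.459 to 1.67 CPM at 40 h (median 0.921) and 48.1 to 68.8 CPM in the adult (median 52.9). For all 4 genes the stages did not overlap.

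All 5 coreceptors and cofactors rose, with a median log2 change of 7.67. Orco, which pairs with nearly every odorant receptor, stood at 5.98 to 11.9 CPM at 40 h (median 8.89) and 1489 to 2438 CPM in the adult (median 2133) (log2 change 7.84 ± 0.16, adjusted p = 6.15e-13). Ir76b stood at 0.176 to 0.551 CPM at 40 h (median 0.286) and 134 to 257 CPM in the adult (median 179) (log2 change 9.19 ± 0.18, adjusted p = 4.92e-13). Snmp1, a membrane protein of pheromone-sensing neurons, stood at 3.05 to 8.03 CPM at 40 h (median 7.12) and 1009 to 1639 CPM in the adult (median 1109) (log2 change 7.67 ± 0.16, adjusted p = 8.65e-13). Ir25a differed from the others in level at 40 h, with 45.8 to 111 CPM at 40 h (median 71.4) and 154 to 372 CPM in the adult (median 268), and in the size of its change (log2 change 1.75 ± 0.10, adjusted p = 3.49e-09), although its stages did not overlap either.

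**Figure D3:**
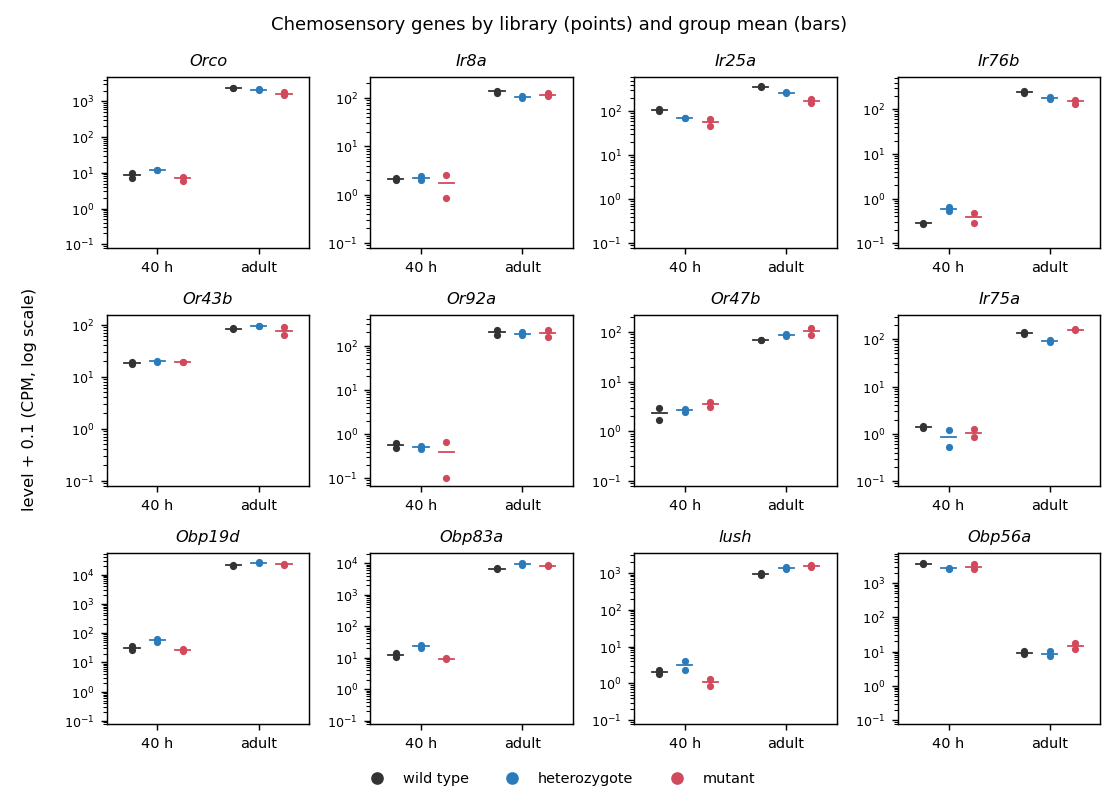
Level of 12 chemosensory genes in CPM plus 0.1 on log scales, by stage (x axis) and genotype (colour), 1 point a library and a bar at the mean of 2 libraries. The stages lie far apart for Orco (log2 change 7.84 ± 0.16), Or92a (8.93 ± 0.24) and Obp19d (9.28 ± 0.21) and closer for Or43b (2.16 ± 0.09) and Ir25a (1.75 ± 0.10), and Obp56a runs in the opposite direction (-8.17 ± 0.23).

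Odorant-binding proteins, which carry odours in the sensillum lymph, moved in both directions. Of 39 tested, 27 rose, 11 fell and 1 did not pass, with a median log2 change of 4.44 (4.32 with Obp56e and Obp56f, which had no count at 40 h, at their lower bounds). Their summed level was 3385 to 4633 CPM at 40 h (median 3980) and 42530 to 58160 CPM in the adult (median 48081). Obp83a stood at 8.68 to 25.9 CPM at 40 h (median 12.2) and 6330 to 9975 CPM in the adult (median 8348) (log2 change 9.18 ± 0.24, adjusted p = 4.24e-12). Obp83b stood at 7.82 to 24.6 CPM at 40 h (median 12.9) and 5311 to 8420 CPM in the adult (median 6327). The gene lush, which binds cis-vaccenyl acetate, stood at 0.763 to 3.85 CPM at 40 h (median 1.97) and 854 to 1608 CPM in the adult (median 1375) (log2 change 9.30 ± 0.29, adjusted p = 1.66e-11). Obp56a was the reverse case: it stood at 2474 to 3698 CPM at 40 h (median 3166) and 7.37 to 17.8 CPM in the adult (median 10.2) (log2 change -8.17 ± 0.23, adjusted p = 6.34e-12). Obp56e had no count at 40 h and 754 counts in the adult, a level at least 189-fold higher with 3 counts over the group as the floor. Apart from this family, the soluble antennal proteins a10 and Os-C showed the same direction. The level of a10 was 7.25 to 20.2 CPM at 40 h (median 10.2) and 5588 to 8117 CPM in the adult (median 6831). The level of Os-C was 5.44 to 21.5 CPM at 40 h (median 9.53) and 5228 to 7935 CPM in the adult (median 6771).

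Genes of neuronal function rose by smaller steps than the receptors. Of 10 pan-neuronal genes 7 rose and 2 fell, with a median log2 change of 1.08. The sodium channel gene para stood at 90.5 to 128 CPM at 40 h (median 105) and 1039 to 1204 CPM in the adult (median 1112) (log2 change 3.39 ± 0.08, adjusted p = 2.42e-12). The synaptic vesicle protein gene nSyb stood at 159.8 to 236 CPM at 40 h (median 216) and 620 to 703 CPM in the adult (median 654) (log2 change 1.63 ± 0.09, adjusted p = 4.51e-09). The neuronal RNA-binding protein genes fne and Rbp9 fell, by 0.79 and by 0.64 on the log2 scale, and elav did not pass the test. These 3 were picked out after their values were seen. Of 15 genes of synaptic vesicle release 13 rose and none fell (median 1.66). Among the 13, Rop, whose stages overlapped, kept its call in 11 of 23 alternatives. ChAT, the enzyme of acetylcholine synthesis, stood at 15.9 to 28.3 CPM at 40 h (median 22.6) and 149 to 288 CPM in the adult (median 231) (log2 change 3.24 ± 0.10, adjusted p = 1.99e-11). VAChT, the transporter gene nested in it, stood at 99.5 to 138 CPM at 40 h (median 125) and 393 to 496 CPM in the adult (median 448) (log2 change 1.84 ± 0.08, adjusted p = 2.43e-10). Reads of the overlapping pair may be shared. The gene brp, which builds the active zone, stood at 132 to 187 CPM at 40 h (median 182) and 332 to 413 CPM in the adult (median 389.7) (log2 change 1.14 ± 0.07, adjusted p = 1.48e-08).

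Channels that shape excitability rose as a group. Of 20 tested, 19 were higher and none lower, and 19 of them by at least 1 on the log2 scale, with a median of 2.81. The calcium-activated potassium channel gene slo stood at 20.7 to 31.1 CPM at 40 h (median 27.9) and 406 to 562 CPM in the adult (median 517) (log2 change 4.22 ± 0.08, adjusted p = 5.45e-13). Hk, the beta subunit of the Shaker channel, stood at 29.9 to 44.1 CPM at 40 h (median 39.3) and 386 to 542 CPM in the adult (median 485) (log2 change 3.61 ± 0.11, adjusted p = 1.12e-11). The gene qvr, a regulator of Shaker, stood at 56.4 to 72.5 CPM at 40 h (median 63.7) and 455 to 556 CPM in the adult (median 526) (log2 change 3.01 ± 0.07, adjusted p = 1.13e-12). Of 37 transmitter and peptide receptors 27 rose and 2 fell (median 1.43). DopEcR, a receptor of dopamine and ecdysone, had the largest change, 10.4 to 25.5 CPM at 40 h (median 12.2) and 537 to 690.4 CPM in the adult (median 618), with a log2 change of 5.37 ± 0.15, adjusted p = 8.08e-12. GABA-B-R1 stood at 19.1 to 28.1 CPM at 40 h (median 23.3) and 313 to 394 CPM in the adult (median 349.7) (log2 change 3.93 ± 0.07, adjusted p = 4.92e-13). Of 15 ppk sodium channel genes 9 rose and 1 fell. The gene ppk stood at 0.351 to 1.07 CPM at 40 h (median 0.5603) and 26.4 to 38.95 CPM in the adult (median 29.4) (log2 change 5.56 ± 0.20, adjusted p = 7.01e-11). The gene ppk25, which serves pheromone detection, fell, with levels of 6.49 to 9.54 CPM at 40 h (median 9.101) and 2.29 to 4.92 CPM in the adult (median 3.76) (log2 change -1.24 ± 0.20, adjusted p = 8.74e-05).

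Axon guidance and adhesion genes went the other way. Of 40 tested, 37 were lower in the adult and 1 was higher, with a median log2 change of -1.59, and the summed level was 10118 to 11587 CPM at 40 h (median 11177) and 3334 to 3623 CPM in the adult (median 3392). Nrt, a neuronal adhesion protein gene, stood at 651 to 1064 CPM at 40 h (median 893) and 167 to 186 CPM in the adult (median 180.2) (log2 change -2.30 ± 0.11, adjusted p = 6.91e-10). The semaphorin gene Sema1b stood at 611 to 728 CPM at 40 h (median 694) and 197 to 245 CPM in the adult (median 226) (log2 change -1.61 ± 0.08, adjusted p = 1.12e-09). The semaphorin receptor gene PlexA stood at 728 to 794 CPM at 40 h (median 766) and 317 to 344 CPM in the adult (median 335) (log2 change -1.20 ± 0.05, adjusted p = 4.30e-10). The immunoglobulin gene hbs had the largest change, 376 to 407 CPM at 40 h (median 396) and 8.18 to 15.1 CPM in the adult (median 11.5), with a log2 change of -5.12 ± 0.14, adjusted p = 4.46e-12. Fas1 was the 1 gene of the list that rose, 376 to 521 CPM at 40 h (median 472) and 757 to 979 CPM in the adult (median 865) (log2 change 0.91 ± 0.08, adjusted p = 2.81e-07). The dpr and DIP genes, whose surface proteins bind each other in pairs, were mixed: of 31 tested, 16 rose, 7 fell and 8 did not pass, with a median of 0.30. DIP-epsilon fell, with levels of 7.16 to 11.8 CPM at 40 h (median 8.56) and 0.137 to 1.36 CPM in the adult (median 0.296) (log2 change -4.26 ± 0.39, adjusted p = 4.65e-07).

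Transcription factors of olfactory neuron fate were mostly lower in the adult. Of 16 tested, 10 fell, 4 rose and 2 did not pass, with a median of -0.74. The gene dan fell, with levels of 29.4 to 44.3 CPM at 40 h (median 40.9) and 0 to 0.775 CPM in the adult (median 0.255) (log2 change -6.78 ± 0.33, adjusted p = 1.03e-09). The POU domain factor gene pdm3 fell, with levels of 265 to 372 CPM at 40 h (median 329.6) and 113 to 122 CPM in the adult (median 119) (log2 change -1.44 ± 0.07, adjusted p = 1.68e-09). Those that rose included onecut, 83.6 to 129.5 CPM at 40 h (median 110.5) and 234 to 301 CPM in the adult (median 264) (log2 change 1.28 ± 0.10, adjusted p = 1.16e-07), and Eip93F, 193 to 320.1 CPM at 40 h (median 232) and 362 to 449.7 CPM in the adult (median 388) (log2 change 0.71 ± 0.11, adjusted p = 4.20e-05). Among 12 antennal and proximodistal factors 7 fell and 4 rose. The gene ss, a bHLH-PAS factor that specifies the distal antenna, rose, with levels of 152 to 188 CPM at 40 h (median 169.5) and 361 to 465 CPM in the adult (median 455) (log2 change 1.33 ± 0.08, adjusted p = 6.58e-09). The gene ct fell, with levels of 217 to 279.5 CPM at 40 h (median 260.1) and 64.8 to 81.9 CPM in the adult (median 78.6) (log2 change -1.73 ± 0.07, adjusted p = 2.20e-10). The sex and courtship factor gene fru stood at 496 to 891 CPM at 40 h (median 720.3) and 24.7 to 37.1 CPM in the adult (median 30.6) (log2 change -4.50 ± 0.15, adjusted p = 2.92e-11).

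Ciliary genes, whose products build the sensory dendrite, rose modestly. Of 24 tested 17 rose, 2 fell and 5 did not pass, with a median log2 change of 0.83. The dynein heavy chain gene btv stood at 42.2 to 68.6 CPM at 40 h (median 54.3) and 201 to 365 CPM in the adult (median 259.8) (log2 change 2.23 ± 0.16, adjusted p = 4.50e-08). The intraflagellar transport gene rempA stood at 88.98 to 153 CPM at 40 h (median 132) and 207 to 292 CPM in the adult (median 251) (log2 change 1.05 ± 0.08, adjusted p = 1.09e-07). BBS9, of the Bardet-Biedl complex, stood at 31.4 to 43.3 CPM at 40 h (median 34.1) and 130 to 204 CPM in the adult (median 184) (log2 change 2.34 ± 0.10, adjusted p = 3.73e-10). Of 14 mechanosensory genes of Johnston's organ, the hearing organ in the second antennal segment, 9 rose and 5 fell. Dhc93AB, an axonemal dynein gene, stood at 76.7 to 120.3 CPM at 40 h (median 83.4) and 632 to 839 CPM in the adult (median 673) (log2 change 2.94 ± 0.12, adjusted p = 1.73e-10). The dendritic cap gene nompA fell, with levels of 249.8 to 425 CPM at 40 h (median 355) and 3.01 to 32.7 CPM in the adult (median 15.5) (log2 change -4.65 ± 0.41, adjusted p = 3.41e-07). The myosin VIIa gene ck fell, with levels of 437 to 666 CPM at 40 h (median 574) and 114 to 147 CPM in the adult (median 132) (log2 change -2.08 ± 0.10, adjusted p = 7.71e-10).

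Of 13 phototransduction genes 8 rose and 1 fell, with a median of 0.98. The 1 that fell, the G protein gene Galphaq, overlapped between the stages and kept its call in 6 of 23 alternatives. Of 10 circadian clock genes 6 rose and 4 fell. The gene tim stood at 0 to 0.702 CPM at 40 h (median 0.285) and 87.9 to 223 CPM in the adult (median 91.9) (log2 change 8.57 ± 0.28, adjusted p = 2.47e-11). The gene cry, the blue-light receptor, stood at 17.4 to 41.5 CPM at 40 h (median 22.8) and 100.3 to 374 CPM in the adult (median 320.4) (log2 change 3.38 ± 0.19, adjusted p = 4.49e-09). In contrast vri fell, with levels of 707 to 821 CPM at 40 h (median 771) and 57.1 to 182 CPM in the adult (median 65.4) (log2 change -3.20 ± 0.20, adjusted p = 1.12e-08). The 2 adult wild type libraries held the highest levels of tim and vri and the lowest of cry among the adult libraries, and the time of day of collection is not given. Among glial genes the glutamate transporter gene Eaat1 rose, with levels of 2.003 to 3.49 CPM at 40 h (median 2.497) and 103 to 191 CPM in the adult (median 132) (log2 change 5.73 ± 0.21, adjusted p = 6.98e-11). The septate junction gene Gli fell, with levels of 82.5 to 112 CPM at 40 h (median 99.4) and 41.6 to 60.2 CPM in the adult (median 48.3) (log2 change -1.01 ± 0.09, adjusted p = 2.16e-07). The gene repo, the marker of glial nuclei, stood at 38.7 to 48.8 CPM at 40 h (median 45.1) and 41.5 to 56.01 CPM in the adult (median 50.4) with overlapping stages and no change past the test (log2 change 0.15 ± 0.07, adjusted p = 0.063).

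Genes of the forming cuticle were abundant at 40 h and low in the adult. Of 19 Osiris genes 18 fell, with a median log2 change of -8.91. Their sum was 71477 to 125142 CPM at 40 h (median 83312) and 162 to 344 CPM in the adult (median 282). These medians are 8.33% and 0.0282% of the scaled total of the kept transcripts, not of all counts. Osi9 stood at 10392 to 15161 CPM at 40 h (median 11790) and 13.2 to 29.4 CPM in the adult (median 22.6) (log2 change -9.19 ± 0.23, adjusted p = 2.59e-12). Osi7 stood at 11317 to 33461 CPM at 40 h (median 15946) and 24.9 to 41.5 CPM in the adult (median 36.3) (log2 change -9.02 ± 0.31, adjusted p = 3.28e-11). Osi19 alone rose, with 2 counts at 40 h and 84 in the adult, a ratio of 31.5 (exact 95% interval of the counts 8.46 to 265). Of 11 genes of zona pellucida proteins and the apical matrix, which shape hairs and bristles from outside, 10 fell and none rose (median -8.87). In this list tyn stood at 3898 to 5608 CPM at 40 h (median 4970) and 6.51 to 13.1 CPM in the adult (median 8.96) (log2 change -9.05 ± 0.18, adjusted p = 5.45e-13). The gene nyo stood at 3013 to 4832 CPM at 40 h (median 4238) and 2.48 to 10.7 CPM in the adult (median 7.45). The gene m stood at 3679 to 4721 CPM at 40 h (median 4119) and 9.14 to 14.4 CPM in the adult (median 12.9). No library of either stage came near those of the other in any of these 5 genes.

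Chitin genes mostly fell, 18 of 28 tested, and 8 rose. The chitin synthase gene kkv stood at 897 to 1578 CPM at 40 h (median 1193) and 2.68 to 4.67 CPM in the adult (median 3.64) (log2 change -8.34 ± 0.19, adjusted p = 1.35e-12). Cht7 fell, with levels of 2030 to 3034 CPM at 40 h (median 2430) and 6.97 to 17.8 CPM in the adult (median 10.2) (log2 change -7.79 ± 0.27, adjusted p = 3.70e-11). Cht10 fell, with levels of 2160 to 3788 CPM at 40 h (median 2858) and 24.03 to 86.02 CPM in the adult (median 32.9) (log2 change -6.12 ± 0.21, adjusted p = 3.35e-11). The chitinase-like growth factor gene Idgf4 rose, with levels of 9.57 to 26.2 CPM at 40 h (median 20.4) and 2188 to 3316 CPM in the adult (median 2408) (log2 change 7.20 ± 0.24, adjusted p = 3.10e-11). Structural cuticle proteins were split: of 57 tested, 28 fell, 15 rose and 14 did not pass. Cpr76Bc stood at 698 to 3642 CPM at 40 h (median 1152) and 2.08 to 7.77 CPM in the adult (median 4.801) (log2 change -8.35 ± 0.50, adjusted p = 6.88e-09). Cpr66D stood at 470 to 901 CPM at 40 h (median 679) and 4.74 to 11.9 CPM in the adult (median 8.61) (log2 change -6.34 ± 0.28, adjusted p = 3.79e-10). In the other direction Cpr67B stood at 1.93 to 6.06 CPM at 40 h (median 3.45) and 643 to 1015 CPM in the adult (median 756) (log2 change 7.68 ± 0.23, adjusted p = 1.10e-11). Cpr65Au stood at 0.286 to 1.82 CPM at 40 h (median 1.12) and 549 to 790.5 CPM in the adult (median 687) (log2 change 9.23 ± 0.27, adjusted p = 8.50e-12).

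**Figure D4:**
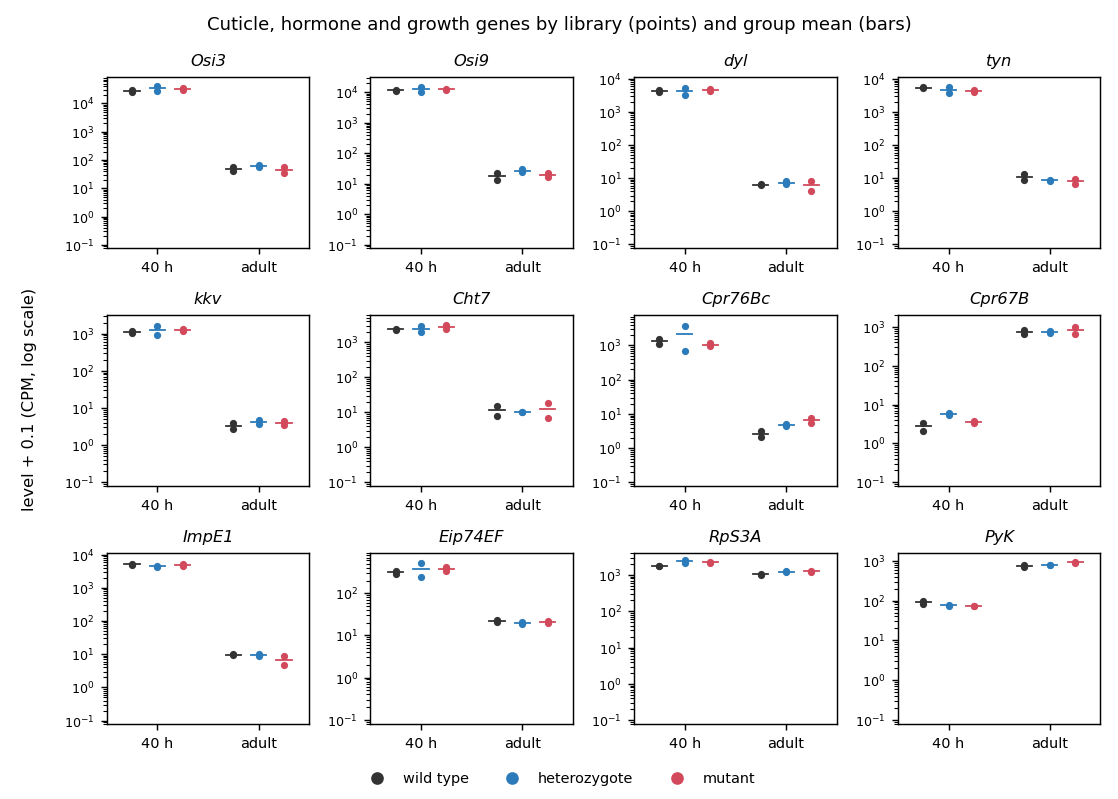
Level of 12 genes of cuticle, hormone response, translation and glycolysis in CPM plus 0.1 on log scales, by stage (x axis) and genotype (colour), 1 point a library and a bar at the mean of 2 libraries. The points of Osi3 (log2 change -9.26 ± 0.23) and kkv (-8.34 ± 0.19) drop far, those of RpS3A drop little (-0.86 ± 0.07), and Cpr67B (7.68 ± 0.23) and PyK (3.35 ± 0.11) rise.

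All 12 actin genes of bristle growth fell, with a median log2 change of -1.46. The gene sn, which encodes the actin bundler fascin, stood at 1173 to 1819 CPM at 40 h (median 1306) and 25.5 to 31.8 CPM in the adult (median 29.6) (log2 change -5.58 ± 0.11, adjusted p = 6.79e-13). The cofilin gene tsr stood at 600.3 to 838 CPM at 40 h (median 684) and 239.8 to 284 CPM in the adult (median 258) (log2 change -1.42 ± 0.08, adjusted p = 4.29e-09). Of 22 pigment and tanning genes 9 rose and 11 fell. The tyrosine hydroxylase gene ple rose, with levels of 6.42 to 37.7 CPM at 40 h (median 26.7) and 252 to 593 CPM in the adult (median 316) (log2 change 3.86 ± 0.34, adjusted p = 3.33e-07). The laccase gene stw fell, with levels of 607 to 1218 CPM at 40 h (median 789) and 133 to 169.8 CPM in the adult (median 153) (log2 change -2.46 ± 0.16, adjusted p = 1.21e-08). The pigment gene y fell, with levels of 3.86 to 16.5 CPM at 40 h (median 7.38) and 0 to 0.453 CPM in the adult (median 0) (log2 change -6.34 ± 0.50, adjusted p = 1.16e-07).

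Hormone genes turned over between the stages. Of 19 ecdysone response genes 13 fell and 5 rose, with a median of -1.94. ImpE1, an ecdysone-induced gene, stood at 4196 to 5312 CPM at 40 h (median 4781) and 4.73 to 9.898 CPM in the adult (median 8.89) (log2 change -9.16 ± 0.20, adjusted p = 8.85e-13). The nuclear receptor gene Eip78C stood at 572 to 993 CPM at 40 h (median 922) and 8.96 to 15.1 CPM in the adult (median 9.65) (log2 change -6.33 ± 0.17, adjusted p = 4.38e-12). Cyp18a1, which inactivates ecdysteroids, stood at 514 to 883 CPM at 40 h (median 773) and 2.04 to 3.61 CPM in the adult (median 2.59) (log2 change -8.12 ± 0.18, adjusted p = 1.24e-12). Of 9 juvenile hormone genes 7 rose and 1 fell. The esterase gene Jhedup stood at 7.98 to 20 CPM at 40 h (median 10.8) and 5175 to 8070 CPM in the adult (median 6233) (log2 change 9.11 ± 0.24, adjusted p = 3.51e-12). The epoxide hydrolase gene Jheh2 stood at 5.56 to 9.92 CPM at 40 h (median 7.26) and 477 to 760.2 CPM in the adult (median 533) (log2 change 6.23 ± 0.18, adjusted p = 8.50e-12). The hormone receptor gene gce stood at 11.7 to 14.4 CPM at 40 h (median 12.3) and 136 to 175 CPM in the adult (median 149) (log2 change 3.59 ± 0.09, adjusted p = 1.91e-12).

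Enzymes that modify odours and foreign compounds rose widely. Of 71 cytochrome P450 genes 56 rose, 7 fell and 8 did not pass, with a median log2 change of 3.18. Cyp6g1, known for insecticide resistance, stood at 4.48 to 8.81 CPM at 40 h (median 5.41) and 2110 to 3006 CPM in the adult (median 2299) (log2 change 8.65 ± 0.14, adjusted p = 2.81e-13). Cyp6w1 stood at 2.56 to 7.62 CPM at 40 h (median 3.81) and 1677 to 4030 CPM in the adult (median 2188) (log2 change 9.14 ± 0.17, adjusted p = 4.44e-13). Cyp6a20 stood at 6.84 to 12.9 CPM at 40 h (median 8.24) and 419 to 1672 CPM in the adult (median 492) (log2 change 6.34 ± 0.22, adjusted p = 5.04e-11). Of 22 UDP-glycosyltransferase genes 18 rose and 2 fell (median 4.14, or 4.03 with the 3 that had no count at 40 h at their lower bounds). Ugt35B1 stood at 3.43 to 6.97 CPM at 40 h (median 5.82) and 1688 to 3282 CPM in the adult (median 2196) (log2 change 8.76 ± 0.17, adjusted p = 4.92e-13). Of 34 glutathione S-transferase genes 24 rose and 6 fell (median 1.40). GstE4 stood at 15.8 to 36.3 CPM at 40 h (median 20.8) and 998 to 2138 CPM in the adult (median 1393) (log2 change 5.97 ± 0.12, adjusted p = 5.94e-13). In the other direction GstS1 fell, with levels of 476 to 683 CPM at 40 h (median 550) and 102 to 134 CPM in the adult (median 121) (log2 change -2.23 ± 0.08, adjusted p = 4.32e-11). Of 13 fatty acid and hydrocarbon genes 12 rose and none fell. The desaturase gene Desat1 stood at 20 to 25.3 CPM at 40 h (median 24.2) and 351 to 398 CPM in the adult (median 368) (log2 change 3.99 ± 0.06, adjusted p = 2.16e-13).

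Energy metabolism rose and the translation machinery fell. Of 76 tested genes of the respiratory chain and ATP synthase 72 rose and 1 fell, with a median log2 change of 1.52, and their sum was 6513 to 7166 CPM at 40 h (median 6650) and 17530 to 22261 CPM in the adult (median 19293). ATPsynbeta stood at 899 to 965 CPM at 40 h (median 939) and 1877 to 2503 CPM in the adult (median 2066) (log2 change 1.18 ± 0.08, adjusted p = 2.58e-08). COX4 stood at 138 to 153 CPM at 40 h (median 146) and 521 to 664 CPM in the adult (median 610.1) (log2 change 2.06 ± 0.07, adjusted p = 3.10e-11). Of 14 glycolysis genes 13 rose and none fell (median 1.72). The pyruvate kinase gene PyK stood at 71.3 to 96.9 CPM at 40 h (median 76.4) and 683 to 934 CPM in the adult (median 794) (log2 change 3.35 ± 0.11, adjusted p = 1.89e-11). Gpdh1 stood at 5.87 to 8.21 CPM at 40 h (median 6.601) and 129.9 to 179.9 CPM in the adult (median 151) (log2 change 4.51 ± 0.09, adjusted p = 6.79e-13).

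Cytoplasmic ribosomal proteins fell in near unison: of 86 tested, 83 were lower, none was higher and 3 did not pass, with a median log2 change of -1.25. Their sum was 73891 to 89797 CPM at 40 h (median 77581) and 31057 to 35912 CPM in the adult (median 32942). RpS3A stood at 1799 to 2578 CPM at 40 h (median 2118) and 1020 to 1260 CPM in the adult (median 1202) (log2 change -0.86 ± 0.07, adjusted p = 2.79e-07). RpL3 stood at 1578 to 1875 CPM at 40 h (median 1664) and 674 to 787 CPM in the adult (median 701) (log2 change -1.25 ± 0.07, adjusted p = 3.80e-09). RpL41 stood at 1431 to 2034 CPM at 40 h (median 1640) and 349.5 to 439.5 CPM in the adult (median 400.1) (log2 change -2.08 ± 0.10, adjusted p = 1.18e-09). Scaling by library totals alone moves the median of all genes by 0.15 on the log2 scale. Both scalings are relative, and a change in total RNA between the stages was not tested. The 32 proteasome genes showed no such shift: 15 rose, 9 fell and 8 did not pass, with a median of 0.02, and only Prosalpha5, 51.97 to 64.9 CPM at 40 h (median 55.9) and 118 to 157 CPM in the adult (median 137), changed by more than 1 on the log2 scale (log2 change 1.26 ± 0.08, adjusted p = 1.34e-08). Of 27 replication and mitosis genes 8 rose and 10 fell. The mitotic kinase gene Cdk1 fell, with levels of 45.7 to 63.99 CPM at 40 h (median 49.4) and 2.75 to 4.303 CPM in the adult (median 3.84) (log2 change -3.81 ± 0.12, adjusted p = 1.76e-11).

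Stress and immune genes varied between libraries of the same stage. Of 20 heat shock genes 13 rose and 4 fell, but Hsp70Bb stood at 69.3 to 378 CPM at 40 h (median 96.1) and 257 to 11227 CPM in the adult (median 2425), and its stages overlapped (log2 change 4.87 ± 1.05, adjusted p = 8.98e-04). The adult wild type libraries held 257 and 1152 CPM of Hsp70Bb, those of heterozygotes 7810 and 3240 CPM and those of mutants 11227 and 1610 CPM, and the Hsp70 copies may share reads. Hsp68 stood at 11.96 to 18.8 CPM at 40 h (median 14.4) and 50.2 to 2390 CPM in the adult (median 588), with no overlap (log2 change 5.44 ± 0.79, adjusted p = 3.85e-05). Of 13 antimicrobial and immune genes 11 rose and none fell, with a summed level of 2.89 to 7.99 CPM at 40 h (median 5.43) and 35.1 to 146 CPM in the adult (median 85.8). These are the tested members of 19 listed. Members this low at 40 h could pass the filter only through the adult, so their direction is no test of the group. PGRP-LB, which degrades peptidoglycan, stood at 0 to 0.3798 CPM at 40 h (median 0.272) and 18.7 to 34.7 CPM in the adult (median 30.5) (log2 change 6.92 ± 0.30, adjusted p = 3.38e-10).

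The same step was then read within each genotype, in a model of 6 groups that share 1 estimate of spread. In wild type 3791 genes (36.1%) were higher in the adult and 3544 (33.7%) lower, in heterozygotes 3811 (36.3%) and 3581 (34.1%), and in mutants 3822 (36.4%) and 3563 (33.9%). In all 3 genotypes 3168 genes were higher and 3002 were lower, and 39 genes passed in opposite directions in some pair of genotypes. The 3 steps share no library, whereas the differences between steps below share those of the common genotype. A difference in the step passed for 233 genes between mutant and wild type (2.22%; 142 with a more positive step in the mutant and 91 with a more negative one), for 117 between heterozygote and wild type (1.11%; 71 and 46) and for 17 between mutant and heterozygote (0.162%; 7 and 10). These counts depend on single libraries: leaving out 1 library at a time gave 79 to 470, 24 to 405 and 4 to 130 genes. The count of 470 came without either heterozygote library of 40 h, those of 405 and 130 came without the second one, and without the second mutant library of 40 h the first count was 79.

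By chromosome arm, 3R, which carries rn, held 10 of the 17 genes that differed between mutant and heterozygote (58.8%), 65 of the 233 between mutant and wild type (27.9%) and 33 of the 117 between heterozygote and wild type (28.2%), against 24.9% of all genes tested. Arm 3L held 5 of the 17. The heterozygote's TM6 chromosome and the rn[tot] chromosome both replace the third chromosome of the wild type, and their part in these differences was not tested.

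The antennal receptors were then read in each genotype. Of 54 receptors 52 were higher in the adult in wild type, 53 in the heterozygote and 43 in the mutant. Among the 16 of small basiconic sensilla, 16 were higher in wild type (median log2 change 6.07), 16 in the heterozygote (median 6.43) and 11 in the mutant (median 3.27), where 1 was lower. The step differed between mutant and wild type for 8 of the 54, 7 with a lower step in the mutant (Ir76a, Ir84a, Or13a, Or67a, Or67d, Or82a and Or85f) and Ir21a with a higher one. Of the 7, 4 also differed between mutant and heterozygote: Ir84a, Or13a, Or82a and Or85f. Apart from Or67a, Or67d, Ir21a, Or82a and Or85f, which the rule for named genes took, these were chosen after their values were seen.

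Or82a, a receptor of small basiconic sensilla, stood in the adult at 25.8 and 26.3 CPM in wild type, at 32.2 and 32.1 CPM in the heterozygote and at 1.06 and 1.39 CPM in the mutant. At 40 h it stood at 0.387 and 0.527 CPM in wild type, at 0.214 and 0.183 CPM in the heterozygote and at 1.14 and 0.5698 CPM in the mutant. In Or82a, Or85f and Or67a the stages overlapped. The step of Or82a was 5.79 ± 0.28 in wild type, 7.27 ± 0.33 in the heterozygote and 0.51 ± 0.34 in the mutant (mutant minus heterozygote -6.76 ± 0.55, adjusted p = 7.98e-04). Or85f stood in the adult at 13.8 and 16.2 CPM in wild type, at 13.7 and 18.1 CPM in the heterozygote and at 0.604 and 0.6198 CPM in the mutant. Before, at 40 h, it was at 2.898 and 3.16 CPM in wild type, at 2.78 and 2.202 CPM in the heterozygote and at 1.72 and 2.66 CPM in the mutant. It fell in mutants and rose in the other genotypes (mutant minus heterozygote -4.49 ± 0.45, adjusted p = 0.0028). Or67a stood in the adult at 35.6 and 43.9 CPM in wild type, at 60.6 and 57.9 CPM in the heterozygote and at 0.302 and 0.3099 CPM in the mutant, with 0.428 CPM or less in every library of 40 h (mutant minus wild type -11.27 ± 1.90, adjusted p = 0.017). In Or67a and Or85f, as in Or67d above, no adult mutant library lay above the highest library of 40 h. Where a group has no count, as Or67a in wild type at 40 h, the fitted size of a step or of a difference depends on the small count that edgeR adds, and the direction and the levels are what can be read.

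Ir21a, a receptor of cooling in the arista, was low at 40 h in both rn stocks. At 40 h it stood at 32.3 and 24.8 CPM in wild type, at 3.85 and 2.75 CPM in the heterozygote and at 0.954 and 2.28 CPM in the mutant. Its adult levels lay at 61.4 and 58.4 CPM in wild type, at 47.8 and 47.8 CPM in the heterozygote and at 49.5 and 53.5 CPM in the mutant. The step was 1.07 ± 0.20 in wild type, 3.86 ± 0.25 in the heterozygote and 4.98 ± 0.27 in the mutant (mutant minus wild type 3.91 ± 0.34, adjusted p = 4.62e-04; heterozygote minus wild type 2.79 ± 0.32, adjusted p = 0.003).

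**Figure D5:**
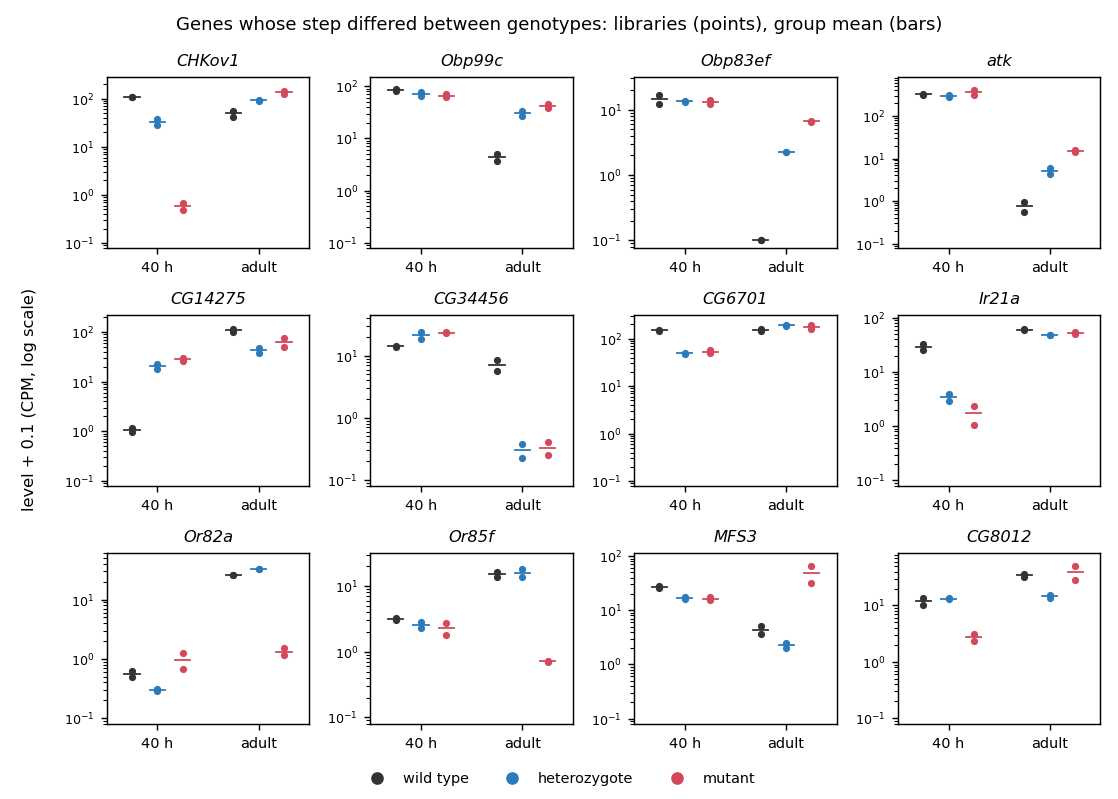
Level of 12 genes whose step from 40 h to the adult differed between genotypes, in CPM plus 0.1 on log scales, by stage (x axis) and genotype (colour), 1 point a library and a bar at the mean of 2 libraries. CG6701 and Ir21a separate wild type from both rn stocks at 40 h, Obp99c, Obp83ef, atk and CG34456 separate it from them in the adult, and the adult mutant points of Or82a and Or85f lie below those of the other genotypes.

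The smallest p-value of a difference was that of CHKov1, on arm 3R at 3R:25323156-25329316 of the BDGP6 assembly. At 40 h it stood at 110.1 and 110.4 CPM in wild type, at 28.03 and 37.6 CPM in the heterozygote and at 0.382 and 0.5698 CPM in the mutant. Adult levels lay at 56.4 and 42.5 CPM in wild type, at 91.5 and 93.2 CPM in the heterozygote and at 145 and 128 CPM in the mutant, and the stages overlapped. It therefore fell in wild type and rose in both rn stocks, most in the mutant (mutant minus wild type 9.29 ± 0.32, adjusted p = 2.74e-07; mutant minus heterozygote 6.64 ± 0.34, adjusted p = 1.34e-05). In the fit with 1 step for all genotypes its change did not pass (log2 change 1.69 ± 1.01, adjusted p = 0.14), and with a step for each genotype the mean step was 2.82 (adjusted p = 2.07e-09).

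A pair of odorant-binding protein genes kept more of their 40 h level in the adult rn stocks. Obp99c stood at 61.6 to 87.2 CPM in all libraries of 40 h. In the adult it stood at 4.95 and 3.52 CPM in wild type, at 27.1 and 33.2 CPM in the heterozygote and at 45.3 and 39.04 CPM in the mutant (mutant minus wild type 3.67 ± 0.24, adjusted p = 8.84e-05; heterozygote minus wild type 3.07 ± 0.24, adjusted p = 5.16e-04). Obp83ef stood at 12.02 to 16.4 CPM at 40 h. In the adult it stood at 0 and 0 CPM in wild type, at 2.19 and 2.12 CPM in the heterozygote and at 6.64 and 6.35 CPM in the mutant (mutant minus wild type 9.47 ± 0.65, adjusted p = 1.85e-04, a size that rests on the absence of counts in adult wild type). The leucine-rich repeat gene atk followed the same order: 285 to 404 CPM at 40 h. In the adult it stood at 0.861 and 0.459 CPM in wild type, at 5.94 and 4.11 CPM in the heterozygote and at 15.7 and 14.1 CPM in the mutant (mutant minus wild type 4.31 ± 0.33, adjusted p = 1.85e-04).

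The heterozygote differed from wild type in several genes. CG14275 stood at 40 h at 0.8695 and 1.05 CPM in wild type, at 18.3 and 22.9 CPM in the heterozygote and at 25.6 and 30.7 CPM in the mutant. By the adult stage it was at 118 and 99.9 CPM in wild type, at 48.5 and 38.3 CPM in the heterozygote and at 76.8 and 49.7 CPM in the mutant (heterozygote minus wild type -5.73 ± 0.40, adjusted p = 3.05e-04; mutant minus wild type -5.64 ± 0.39, adjusted p = 1.12e-04). CG6701 stood at 40 h at 151 and 148 CPM in wild type, at 50.6 and 47.5 CPM in the heterozygote and at 57.1 and 48.6 CPM in the mutant. In the adult it stood at 145 to 198 CPM in all libraries, which overlaps the wild type libraries of 40 h (heterozygote minus wild type 1.92 ± 0.16, adjusted p = 5.16e-04). CG34456 stood in the adult at 8.32 and 5.505 CPM in wild type, at 0.273 and 0.124 CPM in the heterozygote and at 0.151 and 0.3099 CPM in the mutant. At 40 h it stood at 13.7 to 24.1 CPM in all libraries (heterozygote minus wild type -5.68 ± 0.47, adjusted p = 5.16e-04). For CG14275 and CG34456 the difference between the steps of mutant and heterozygote did not pass (0.10 ± 0.30 and 0.09 ± 0.69).

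A further pair of genes separated the mutant from the heterozygote outside the receptors. MFS3, a gene of the major facilitator transporters, stood in the adult at 5.02 and 3.52 CPM in wild type, at 1.91 and 2.37 CPM in the heterozygote and at 64.3 and 32.4 CPM in the mutant. Libraries of 40 h had it at 27.4 and 25.1 CPM in wild type, at 17.1 and 15.8 CPM in the heterozygote and at 15.1 and 17.3 CPM in the mutant, and the stages overlapped (mutant minus heterozygote 4.51 ± 0.44, adjusted p = 0.0028). CG8012 stood at 40 h at 10.1 and 13.4 CPM in wild type, at 12.8 and 13.2 CPM in the heterozygote and at 3.05 and 2.28 CPM in the mutant. In the adult it stood at 36.6 and 31.7 CPM in wild type, at 13.6 and 15.3 CPM in the heterozygote and at 49.1 and 28.1 CPM in the mutant (mutant minus heterozygote 3.70 ± 0.39, adjusted p = 0.0042). Its call was lost in the fit over all 24 libraries (adjusted p = 0.2345) and without the first adult heterozygote library (adjusted p = 0.05086), and that of Or85f was lost in the fit over all 24 libraries (adjusted p = 0.05352).

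Groups outside the receptors were counted in each genotype as well. Of 86 ribosomal protein genes 82 were lower in the adult in wild type, 83 in the heterozygote and 83 in the mutant. Of 76 respiratory chain genes 70, 71 and 73 were higher. In each genotype 18 of 19 Osiris genes fell, and 36, 34 and 36 of 40 axon guidance genes fell. In no Osiris, ribosomal protein or respiratory chain gene except Osi8, chosen after its values were seen, did the step differ between genotypes: for Osi8 the difference was 1.73 ± 0.23, adjusted p = 0.0052 for mutant minus wild type and 1.91 ± 0.23, adjusted p = 0.0045 for heterozygote minus wild type. Of 20 heat shock genes, 5 were higher and 7 lower in wild type, 13 and 4 in the heterozygote, 14 and 4 in the mutant, with no member whose step differed past the test. Of 13 antimicrobial and immune genes, 5 were higher in wild type, 11 in the heterozygote and 9 in the mutant, and none was lower. All 5 coreceptors rose in each genotype, and none had a step that differed past the test between genotypes. Over all genes tested the step differed for 2.22% (mutant minus wild type), 1.11% (heterozygote minus wild type) and 0.162% (mutant minus heterozygote). At these shares a list of such size would hold few or none, so the absence of calls does not show that the genotypes are alike.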

How the data were processed

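Polyadenylated RNA of antennae was extracted with RNeasy columns and sequenced as stranded libraries, per the labels' protocols. The submitters' processing notes name CASAVA 1.8, BWA 0.7.12 and DESeq2. Neither the counting tool, nor its strand setting, nor the genome build is given in the sources used here. The authors deposited a table of counts per transcript and a second table of normalized signal. The normalized signal in the deposited table equals the counts times 1 constant per library and was not used further. In each library 73.4% to 78.3% of values from 1 to 20 were even numbers, so mates of a pair may both have been counted, and the counts then overstate the depth.

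Of 29872 transcripts, 29393 matched a gene of the Ensembl annotation of BDGP6 (13409 genes, 98.69% of counts). For each gene the transcript with the highest total was kept, which holds 45.5% of these counts. Summing the transcripts was an alternative. Genes passing filterByExpr (minimum count 10), 10512 in all, were tested with edgeR 4.0.16 (R 4.3.3, limma 3.58.1), by quasi-likelihood with TMM factors and Benjamini-Hochberg adjustment over all genes, at an adjusted p under 0.05. The main model held genotype and stage (8 residual degrees of freedom), and a model of 6 groups gave the step in each genotype and the differences of steps (6 residual degrees of freedom). DESeq2 1.42.0 was an alternative, among 23.

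The 48 lists and the members described were chosen with earlier results of these data known. The cyclophilin genes Cyp1 and Cyp40 were taken out of the P450 list after their values were seen. Genes were named by rule: the 12 largest increases and decreases with no overlap of the stages and at least 50 CPM, the 10 most abundant of each stage, up to 4 most abundant members and the most changed member of each list, the 5 smallest p-values of each difference of steps at 5 CPM or more, and rn. This took 256 genes, and 67 of them overlap another gene, with which reads may be shared. Intervals and floors (3 counts) cover counting error only. If both mates of a pair were counted, the intervals are too narrow and the lower bounds too high. Whether the libraries of a group are separate biological samples is not given.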

Additional observations from a re-analysis of the deposited data

Results flagged for a closer look

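The step from 40 h to the adult differed between genotypes for the following genes, of those named by rule, by the test of the difference itself (edgeR, model of 6 groups, adjusted p under 0.05). Values are differences of the log2 step.

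Between mutant and wild type, the step of CHKov1 differed by 9.29, that of Obp83ef by 9.47, that of atk by 4.31, that of Ir21a by 3.91, that of Drs by 3.75, that of Obp99c by 3.67, that of MFS3 by 4.19, that of CG10553 by 3.23, that of CG8012 by 2.32, that of Cpr65Au by 2.29 and that of CG6701 by 1.70. More negative in the mutant were the steps of Or67a (-11.27), Or67d (-7.42), CG14275 (-5.64), CG34456 (-5.58), Or82a (-5.28), Or85f (-4.12), Ugt49C1 (-1.95), Obp19a (-1.56), vri (-1.23) and Cyp6a20 (-1.22). The size for CG10553 rests on 40 h levels of 0 and 0.190 CPM in the mutant against 0.773 and 0.351 CPM in wild type (edgeR, adjusted p = 0.046). Levels of Drs were also near 0 at 40 h. Drs encodes an antifungal peptide, Ugt49C1 a glycosyltransferase and vri a clock repressor.

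Between heterozygote and wild type, the step was more positive for Obp83ef (7.83), Obp99c (3.07), atk (3.02), Ir21a (2.79), CHKov1 (2.65), CG6701 (1.92) and hbs (0.92). It was more negative for CG14275 (-5.73), CG34456 (-5.68), Ugt49C1 (-1.97), Obp19a (-1.53), Idgf4 (-1.36), Cyp6a20 (-1.24), Cht10 (-1.17), vri (-1.13), wtrw (-0.91) and DopEcR (-0.81).

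Between mutant and heterozygote, the step was more positive for CHKov1 (6.64), MFS3 (4.51) and CG8012 (3.70), and more negative for Or82a (-6.76) and Or85f (-4.49).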

How the results depend on the processing

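The numbers of genes that rose or fell, over all genotypes and in each, stayed within 1.5 times of the reported count in every alternative run. The numbers of genes whose step differed did not. For mutant minus wild type, reported as 233, DESeq2 gave 460, the fit over all 24 libraries 82 and the replicate block 143. Leaving out 1 library gave 79 to 470: 102 and 83 without the first or second wild type library of 40 h, 470 without either heterozygote one, 138 and 79 without the mutant ones, 138 and 97 without the adult wild type ones, and 147 without the first adult mutant one. For heterozygote minus wild type, reported as 117, the counts were 280 with DESeq2, 24 over all 24 libraries, 63 with the block, and 24 to 405 without 1 library. For mutant minus heterozygote, reported as 17, they were 91, 5 and 10, and 4 to 130 without 1 library. The causes were not tested. The replicate block took equal numbers as pairs, but same-numbered libraries did not deviate together (correlations 0.00354, -0.0356 and 0.0292), so the numbers name libraries only.

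Of single-gene values, 6106 stayed on their side of the threshold, 30 passed only in an alternative, 57 were lost and 1 turned: the small fall of Galphaq, which kept its call in 6 of 23 alternatives, became 0 with library totals alone, the scaling that moves the median of all genes by 0.15 and the share of higher calls from 51.6% to 57.3%. The change of Or85f over all genotypes was lost in 6 alternatives. Without the first adult mutant library the muscle genes Mlc2 (-1.43), Mlc1 (-1.01) and Prm (-1.18) passed. Of results for the gene lists, 3163 stayed the same over the alternatives and 149 moved. Depth limits genes near 0 at 1 stage.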

Other observations

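Gene groups beyond those described above were listed after the data were seen, and are given as counts with no test of the group. Of 20 subunits of the vacuolar ATPase, the proton pump of acidic compartments, 19 rose and none fell, with a median log2 change of 1.47, and their sum was 3189 to 3663 CPM at 40 h (median 3268) and 9079 to 12095 CPM in the adult (median 10002). Of 73 mitochondrial ribosomal proteins 56 rose and 5 fell (median 0.65). Of 46 translation factors 3 rose and 35 fell (median -0.53). Of 10 mucin-type glycosyltransferases, which start O-glycosylation of secreted proteins, 9 fell and none rose (median -2.18), and their sum was 3278 to 3596 CPM at 40 h (median 3504) and 331 to 371 CPM in the adult (median 349.6). All 12 Bomanin genes, which encode immune-induced peptides, rose (median 7.06, or 6.06 with the 3 that had no count at 40 h at their lower bounds).

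Of 21 neuropeptide precursors 12 rose and 5 fell (median 0.91). Mip had 490 counts at 40 h and none in the adult, a level at least 217-fold higher at 40 h with 3 counts over the group as the floor. Of 60 gustatory receptor genes 22 were tested, and of these 17 rose and 2 fell (median 2.08). In wild type, heterozygote and mutant 15, 13 and 11 were higher in the adult (medians 3.42, 2.30 and 1.22). For 6 of the 22, Gr64a to Gr64f, the step was lower in the mutant than in wild type past the test, against 2.22% of all genes tested. Of 8 transcripts of the mitochondrial genome 6 rose and 1 fell (median 1.16).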
